A study of Homo sapiens with 6 samples.

Results

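The translation initiation and elongation factors are the proteins that load messenger RNA and the initiator tRNA onto the ribosome and then move the ribosome along the message. Genes were taken as members by symbol: EIF or EEF followed by a digit, leaving out the kinases that start with EIF2AK or EEF2K. The rule used no measured value, but it was chosen with earlier results of these data known. It gave 78 of the 13271 genes in the deposited table. They comprised 58 protein-coding factor genes whose levels are described, 1 Y-linked gene (EIF1AY) that was counted but whose level is not reported, and 19 pseudogenes or noncoding neighbours. The 71 members that reached a value of 1 in 3 or more libraries were tested; the other 7 were EEF1A2 and 6 pseudogenes.

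The cells were 5637, an established human bladder cancer line, grown with 5% fetal bovine serum. Both groups were transfected with Lipofectamine 3000 and lysed 48 h later: 3 control libraries came from cells given an empty vector, and 3 MAT1A libraries from cells given a plasmid to overexpress MAT1A, the liver-type enzyme that makes S-adenosylmethionine, the methyl donor of the cell. The question put to these genes was whether their transcripts differed between MAT1A and empty-vector cells. Nothing in the labels states that the replicates were separate cultures, and the p-values therefore reflect the scatter of these libraries alone, part or all of which may be technical. In bulk RNA, fewer cells of a type and less RNA per cell cannot be told apart.

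The deposited values are reads on a scale close to CPM, called "value" below, and they correspond to 17.4 to 20.7 M reads in the control libraries and 18.7 to 21.6 M in the MAT1A libraries. A floor of 3 reads equals a value of 0.140 to 0.172, which covers counting error only. MAT1A itself had values of 1.09, 0.253 and 4.54 in controls 1, 2 and 3 and of 1805, 1834 and 1917 in MAT1A libraries 1, 2 and 3, as labelled. Of 14 urothelial or epithelial markers 12 were listed, with summed values of 11432 to 11719 in controls and 12198 to 13408 in MAT1A libraries; UPK2, a marker of mature urothelium, was near its lower limit, between 0.606 and 1.08. Of 13 skeletal muscle markers 12 were also listed, with sums of 449.7, 136 and 77.4 in controls 1, 2 and 3 and of 75.0, 34.5 and 28.4 in MAT1A libraries 1, 2 and 3. All 12 were called lower, and control 1 stood apart from the other libraries. Of 6 fibroblast markers 3 were listed, with sums of 259.3, 151.4 and 142.5 in controls and of 124.9, 128.4 and 120.8 in MAT1A libraries, and 1 was called lower. Of the epithelial markers 5 were called higher and 1 lower. The part of these other markers in the results below was not tested. Because each MAT1A library was below each control, the muscle sum and the group are partly the same contrast. A limma fit took the mean log2(value + 1) of the 12 muscle markers as a covariate. It called 389 genes in place of 1468 and 0 members (5 members at an unadjusted p under 0.05). Its value stands beside each member printed library by library that it moved by over 1.5 times or whose call it ended.

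Initiation begins when eIF2, bound to GTP, delivers the initiator tRNA to the small ribosomal subunit, and eIF2B recharges eIF2 for the next round. eIF3 is the large scaffold that holds the small subunit, the cap complex and the other factors together, while the eIF4 factors recognise the cap and unwind the leader. eIF1 and eIF1A govern scanning for the start codon, and eIF5 and eIF5B bring in the large subunit. In elongation eEF1A carries aminoacyl-tRNA to the ribosome, eEF1B recharges eEF1A, eEF2 drives translocation, and eIF5A, the hypusine-bearing factor, relieves stalls.

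Several factor genes share a feature with ribosomal protein genes, the 5' terminal oligopyrimidine (TOP) start, a C at the first transcribed base followed by a run of C and T, through which mTOR signalling is known to control translation. The starts below come from the RefSeq promoter table (GRCh38.p14), 15 bases before and 15 after the annotated start, written 5' to 3' on the gene's strand. Capitals mark the pyrimidine run that starts with the C at the first transcribed base. The first 8 are examples from the 12 tested members with such a run, taken from the eIF2D, eIF3, eIF4 and elongation genes, and the last 2 are called members without it.
EIF2D (chr1:206612451-206612480, minus strand): ggtttccagccgggcCCTTTTCgcggccgg
EEF1B2 (chr2:206159880-206159909, plus strand): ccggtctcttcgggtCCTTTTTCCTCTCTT
EEF1A1 (chr6:73521018-73521047, minus strand): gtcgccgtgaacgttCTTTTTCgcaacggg
EEF2 (chr19:3985449-3985478, minus strand): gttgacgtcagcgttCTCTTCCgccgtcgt
EIF3K (chr19:38619173-38619202, plus strand): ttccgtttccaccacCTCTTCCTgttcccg
EIF3F (chr11:7987322-7987351, plus strand): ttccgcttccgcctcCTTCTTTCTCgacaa
EIF4A2 (chr3:186783562-186783591, plus strand): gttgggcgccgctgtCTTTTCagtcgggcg
EIF4B (chr12:53006441-53006470, plus strand): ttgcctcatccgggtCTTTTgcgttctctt
EIF3I (chr1:32222392-32222421, plus strand): accttttccggtcttactcacgttgcggcc
EEF1AKMT4 (chr3:184249657-184249686, plus strand): gaagggccggcggctctggctgcccggcgg

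A run of at least 5 pyrimidines with C at the start was found in 12 of 46 tested members with a promoter entry, 26.1%. It was found in 4.07% of all 35116 promoters. Counted per gene, as for the members, it was found in 7.37% of 10043 tested genes with a promoter entry. The same count gave 69.4% of 62 ribosomal protein genes. Of the 12 members with a run 2 were called higher, and their median log2 change was 0.06, with 11 above 0. The 34 members without a run also had 2 called higher, with a median of 0.05 and 25 above 0. Neither set had a member called lower. Members with and without the run thus lay close together. Over the 740 tested genes with the run the median was 0.02, with 33 called higher, 40 called lower and 428 above 0. Over the 9303 without it the median was 0.003, with 369 called higher, 672 called lower and 4766 above 0.

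Of the 71 tested members 4 were called higher in MAT1A libraries (adjusted p under 0.05 by limma over all 12866 tested genes), 1 was called lower and 66 were not called. The 4 were EIF2D, a non-canonical tRNA-loading factor, EIF3I, a subunit of eIF3, EEF1B2, the exchange factor subunit eEF1Bα, and EEF1AKMT4, a methyltransferase that modifies eEF1A. The gene called lower was EEF1A1P16, a pseudogene. Among all tested genes 11.4% were called, 4.01% higher and 7.4% lower, so the members' shares were near or below the background and are not a result about translation factors. The 57 tested factor genes whose levels are reported had log2 changes from -0.20 to 0.28, and their 95% intervals reached from -0.35 to 0.47.

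The small changes leaned one way. Of those 57 genes 47 were above 0, with a median log2 change of 0.06, against 51.5% above 0 and a median of 0.004 over all tested genes. Much of the abundant transcriptome leaned the same way: among the 2434 genes with a mean value of at least 100, 62.4% were above 0, with a median of 0.02. Of the 34 members at that level 30 were above 0, with a median of 0.05. All 3 MAT1A libraries were above all 3 controls for 16 of the 71 members and below them for 5. Over all tested genes these shares were 14.7% above and 15.6% below. Among the 2434 genes with a mean value of at least 100, 612 were above and 359 below. Of the 34 members at that level, 12 were above and 1 below.

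Libraries with the same replicate number deviated together, a pairing read from these same values and stated by no label. With the replicate number as a block limma called 11 members higher and 3 lower. The 11 were EIF2D, EIF3I, EEF1B2 and EEF1AKMT4, joined by EIF2B5, EIF3E, EIF3K, EIF4A3, EIF5A, EIF5B and EEF1A1. The 3 were EEF1A1P16, EIF4A2 and EIF5. The background also rose, to 7.57% of all genes higher and 10.4% lower. Among the 2434 genes with a mean value of at least 100, 466 were called higher and 297 lower with the block. Of the 34 members at that level, 9 were called higher and 2 lower. With a trend of change on gene length and GC content removed, 15 of 70 members were called higher and 1 lower, against 9.99% of all genes higher and 7.24% lower; the same step turned the split of all calls from 35.1% higher to 58.0% higher.

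**Figure D1:**
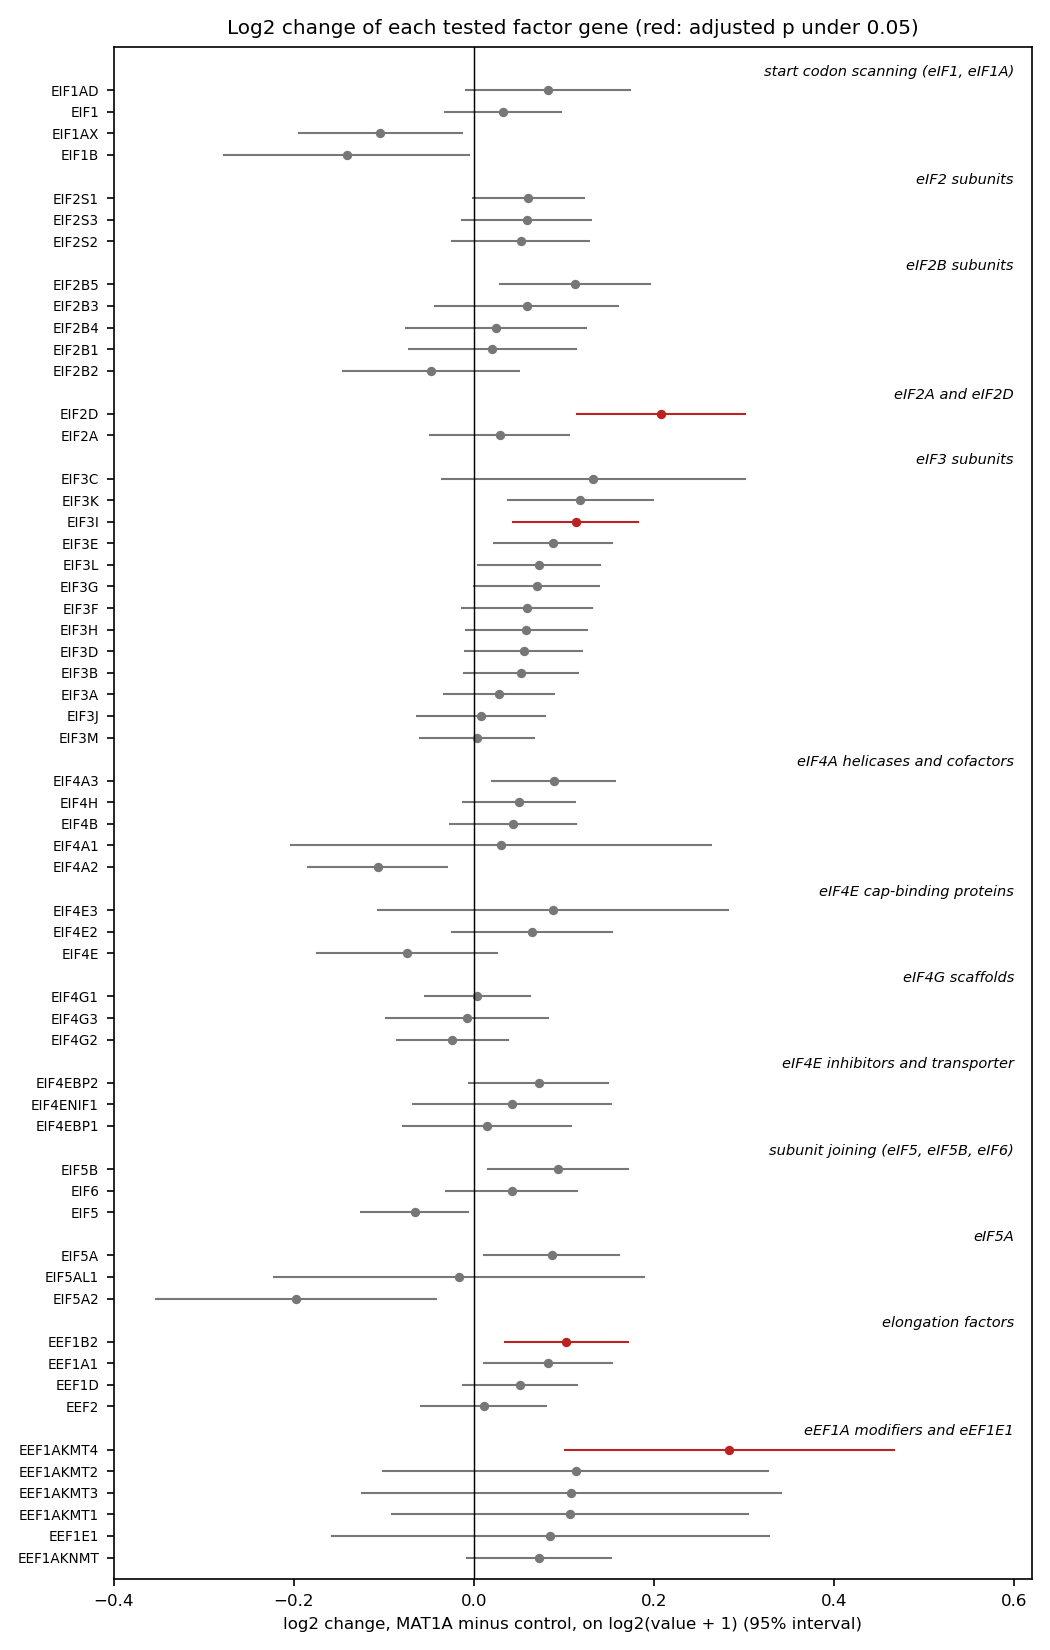
Log2 change of each tested factor gene (MAT1A minus control, on log2(value + 1), horizontal axis) with its 95% interval, ordered by role; pseudogenes and EIF1AY are left out. The 4 red points were called higher; all 13 eIF3 points lie to the right of 0, between 0.004 and 0.13.

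The 3 subunits of eIF2 were slightly higher in MAT1A libraries, and none was called. EIF2S1 encodes the α subunit, whose phosphorylation by stress kinases slows initiation. Its values were 293.1, 292.9 and 291.8 in controls and 299.5, 311 and 305.1 in MAT1A libraries. The groups did not overlap, yet the log2 change of 0.06 ± 0.03 (SE) missed the threshold (adjusted p = 0.201). With the trend removed it was 0.12 and passed (adjusted p = 0.00529). EIF2S3, the γ subunit that binds GTP and the initiator tRNA, had values of 104, 105.2 and 104 in controls and 109.4, 106.6 and 110.4 in MAT1A libraries. These did not overlap either (log2 change 0.06 ± 0.03 SE, adjusted p = 0.289; with the trend removed 0.09, adjusted p = 0.0511, and 0.0306 with the block as well). EIF2S2, the β subunit, overlapped between groups, with 209.9 ± 7.56 in controls and 217.6 ± 7.85 in MAT1A libraries (SD, n = 3).

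The regulators of eIF2 gave a larger difference outside the members. PPP1R15A, the stress-inducible subunit that directs protein phosphatase 1 to eIF2α, had values of 279.6, 301.6 and 301.9 in controls and 187.6, 188.5 and 179.5 in MAT1A libraries. It fell by 0.66 ± 0.04 (SE) on the log2 scale (adjusted p = 1.27e-09), with no overlap, and was called under all 17 other settings run (other tools, scalings, filters, covariates and left-out libraries). Its constitutive relative PPP1R15B had values of 108.7, 104.8 and 106.9 in controls and 95.03, 93.7 and 101.5 in MAT1A libraries. It fell by 0.14 ± 0.04 (adjusted p = 0.0234), a call lost with the muscle covariate (adjusted p = 0.289, log2 change -0.14) and when control 1, control 3 or MAT1A 1 was left out. The other 5 genes of that list of 7, the eIF2 kinases EIF2AK1 to EIF2AK4 and the eEF2 kinase EEF2K, were not called, with log2 changes from -0.09 to 0.07.

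The 5 subunits of eIF2B, the exchange factor that recharges eIF2, were not called. EIF2B5, the catalytic ε subunit, had values of 101.6, 96.2 and 98.7 in controls and 105, 112.5 and 103.5 in MAT1A libraries. All MAT1A libraries were above all controls, and the log2 change was 0.11 ± 0.04 (SE, adjusted p = 0.0764, 0.0354 with the replicate block, and 0.0349 with the trend removed). EIF2B3, the γ subunit, overlapped, with 39.5, 43.3 and 40.4 in controls and 42.1, 43.9 and 42.4 in MAT1A libraries (log2 change 0.06 ± 0.05, adjusted p = 0.473). Its change was 0.02 with the muscle covariate, 0.03 without control 1 and 0.10 without control 2. EIF2B1, EIF2B2 and EIF2B4 overlapped as well, with log2 changes from -0.05 to 0.02.

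EIF2D (chr1:206571292-206612463, minus strand in GENCODE 29 on GRCh38) had the smallest adjusted p among the members. The protein can place tRNA in the ribosome without GTP and takes part in recycling and reinitiation. Its values were 41.6, 44.3 and 42.0 in controls 1, 2 and 3 and 49.0, 49.2 and 49.8 in MAT1A libraries 1, 2 and 3, from 724 to 1069 reads a library. The MAT1A libraries lay within 1 value unit of each other and above every control. EIF2D rose by 0.21 ± 0.04 (SE, n = 3 per group) on the log2 scale (adjusted p = 0.0054). The call held in 16 of 17 other settings and was lost with the muscle covariate, where the log2 change was 0.18 (adjusted p = 0.216; range over settings 7.88e-05 to 0.216). Only 0.771% of the 36-base words of its longest transcript, the length of 1 read, occur in other genes. EIF2A, another non-canonical factor, overlapped between groups, with 139.7 ± 6.02 in controls and 142.5 ± 2.37 in MAT1A libraries (adjusted p = 0.665).

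All 13 eIF3 subunits in the table had log2 changes above 0, with a median of 0.06, but only EIF3I was called. Their summed value was 3275.9, 3384 and 3329 in controls 1, 2 and 3 and 3434, 3534 and 3442 in MAT1A libraries 1, 2 and 3. The sums did not overlap, and 7 of the 13 subunits also had every MAT1A library above every control: EIF3I, EIF3K, EIF3E, EIF3L, EIF3G, EIF3B and EIF3C. Such a separation held for 14.7% of all tested genes and 612 of the 2434 with a mean value of at least 100. MAT1A library 2 held the highest value for 9 of the 13, MAT1A 3 for 2, and MAT1A 1 and control 3 for 1 each.

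EIF3I (chr1:32221928-32231604, plus strand), a small propeller-shaped subunit at the edge of the complex, had values of 323.6, 335.2 and 326 in controls and 341.1, 368.6 and 356 in MAT1A libraries. The closest pair across groups was control 2 and MAT1A 1. EIF3I rose by 0.11 ± 0.03 (SE) on the log2 scale (adjusted p = 0.0353, and 0.00267 with the replicate block). The call was lost with the muscle covariate (log2 change 0.08, adjusted p = 0.539) and when any library but MAT1A 1 was left out (adjusted p up to 0.148). Of its exon bases 6.2% overlap TMEM234 on the other strand, where unstranded reads cannot be told apart.

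EIF3K, the smallest subunit, had values of 142.6, 152.6 and 149.6 in controls and 155.8, 168.9 and 158.4 in MAT1A libraries. Its log2 change of 0.12 ± 0.04 had adjusted p = 0.0549, 0.00684 with the replicate block and 0.0171 with the trend removed; with the muscle covariate it was 0.05 (adjusted p = 0.716). EIF3E, a subunit of the octameric core, had values of 236.1, 249.5 and 241.1 in controls and 255.6, 258.4 and 258.5 in MAT1A libraries. Its log2 change of 0.09 ± 0.03 had adjusted p = 0.0766, and 0.0236 with the block. It was 0.16 with the trend removed (adjusted p = 0.00105) and 0.06 with the muscle covariate (adjusted p = 0.637). For both the groups did not overlap.

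Among the other subunits, EIF3L (0.07), EIF3G (0.07) and EIF3B (0.05) were above every control without being called. EIF3F, EIF3H, EIF3D, EIF3A, EIF3J and EIF3M overlapped, with log2 changes from 0.004 to 0.06; of these, EIF3F and EIF3H were called higher once the length and GC trend was removed. EIF3J is the loosely bound subunit, and EIF3M, with 227.7 ± 3.3 in controls and 228.3 ± 2.92 in MAT1A libraries, had the smallest change of the 13. EIF3C had a log2 change of 0.13 ± 0.08 (adjusted p = 0.31), but 52.1% of its 36-base words occur in other genes, chiefly its copy EIF3CL. Per kilobase of exon the control level of EIF3C was 1.26, against 18.8 to 190.3 for the other 12 subunits, and the sources used here do not say how reads that fit both genes were counted. For EIF3L 41.1% of exon bases lie under a second gene model on the same strand.

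**Figure D2:**
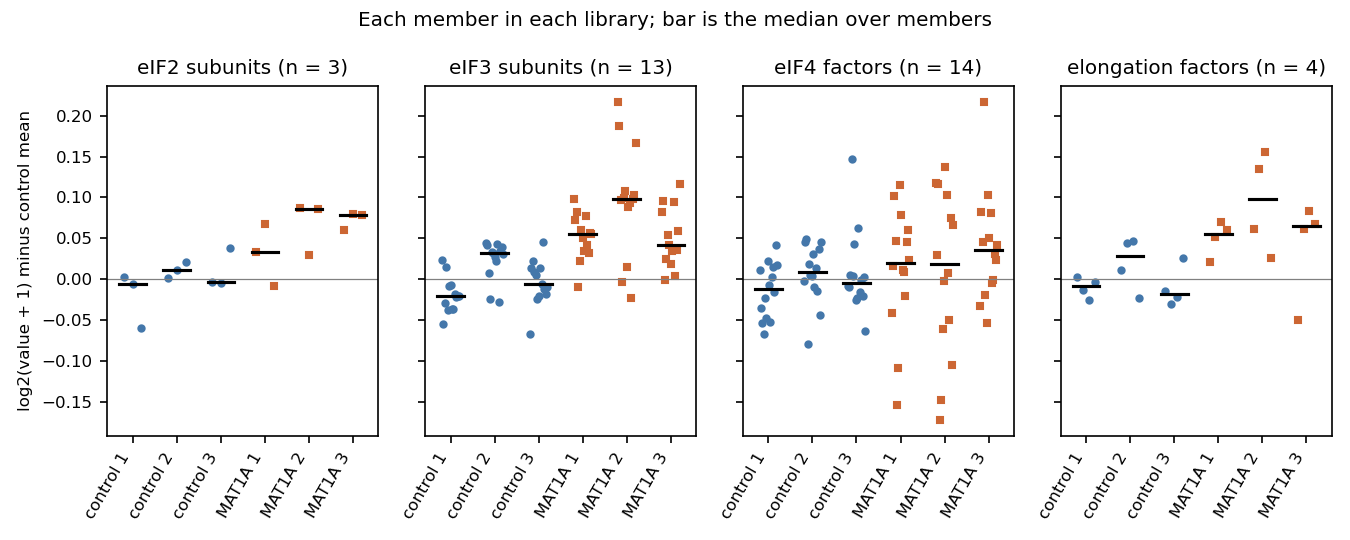
Deviation of each member from its control mean (log2(value + 1), vertical axis) in each of the 6 libraries (horizontal axis), for eIF2, eIF3, eIF4 and the elongation factors; circles are control, squares MAT1A, bars the median over members. The eIF3 medians are 0.06, 0.10 and 0.04 in MAT1A libraries 1, 2 and 3 and -0.02, 0.03 and -0.01 in controls 1, 2 and 3; the eIF4 members spread to both sides of 0.

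The 14 eIF4 genes held no member called by edgeR, DESeq2 or the main limma fit (all 6 libraries, group only). In that limma fit 2 had an unadjusted p under 0.05. With the replicate block limma called 1 higher and 1 lower. The changes of the 14 genes went both ways: 10 were above 0 and 4 below, with a median log2 change of 0.04 (0.02 without control 1). Their summed value was 4745 ± 26.7 in controls and 4747 ± 31.1 in MAT1A libraries (SD, n = 3). The helicases parted in sign. EIF4A2, a helicase of the cap complex, had values of 229.8, 236.6 and 234 in controls and 209.7, 210.7 and 230.4 in MAT1A libraries. MAT1A 1 and 2 were low while MAT1A 3 lay within the controls, and the log2 change was -0.11 ± 0.04 (adjusted p = 0.0718, 0.0141 with the replicate block, and 0.00559 without MAT1A 3). With the trend removed the change was -0.04 (adjusted p = 0.355, and 0.23 with the block as well).

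EIF4A3, the helicase that anchors the exon junction complex, had values of 234.4, 240.6 and 231.8 in controls and 248.9, 259.2 and 244 in MAT1A libraries. The groups did not overlap (log2 change 0.09 ± 0.03, adjusted p = 0.0879, 0.0209 with the block, and 0.0194 with the trend removed). EIF4A1, the main helicase in most cells, was listed at only 5.41 ± 0.578 in controls and 5.57 ± 0.879 in MAT1A libraries. All of its 36-base words (100%) also occur in overlapping gene models such as SENP3-EIF4A1, so its row need not hold all of its reads. The helicase cofactors EIF4B and EIF4H, RNA-binding proteins that stimulate unwinding, had log2 changes of 0.04 and 0.05 and were not called.

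The cap-binding proteins were EIF4E, its translation-repressing relative EIF4E2, and EIF4E3. EIF4E had values of 37.8, 39.3 and 40.3 in controls and 36.2, 37.5 and 37.7 in MAT1A libraries, each MAT1A library below each control. The log2 change of -0.07 ± 0.05 was not called (adjusted p = 0.339), and was -0.01 with the trend removed and -0.14 with the muscle covariate. EIF4E2 had values of 69.3, 71.4 and 75.1 in controls and 72.4, 77.2 and 76.1 in MAT1A libraries, which overlapped (log2 change 0.07 ± 0.04, adjusted p = 0.348; 0.04 without control 1 and -0.02 with the muscle covariate). EIF4E3 was low in every library, between 4.59 and 5.29.

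The scaffolds that join the cap-binding protein to eIF3 differed little between groups, and none was called. EIF4G1 had values of 909.9, 916.9 and 898.7 in controls and 914.1, 912.9 and 905.7 in MAT1A libraries (log2 change 0.004, 95% interval -0.05 to 0.06). EIF4G2, a relative that lacks the part that binds EIF4E, had values of 2157, 2115 and 2135 in controls and 2106, 2064 and 2133 in MAT1A libraries (log2 change -0.02 ± 0.03, adjusted p = 0.653). EIF4G3 had values of 124.1, 116.8 and 120.7 in controls and 125.7, 111.9 and 122.5 in MAT1A libraries (log2 change -0.01 ± 0.04, adjusted p = 0.935). The signs of EIF4G2 and EIF4G3 flipped with the trend removed, where they were 0.02 and 0.009; that of EIF4G3 also flipped with the muscle covariate (0.05) and without MAT1A 2 (0.04) or control 1 (0.01), and the change of EIF4G2 was -0.01 with the muscle covariate and without MAT1A 2.

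The repressors that sequester EIF4E were not called. EIF4EBP2 had values of 142.6, 140.7 and 137.9 in controls and 152.2, 140.2 and 150.8 in MAT1A libraries, with MAT1A 2 inside the control range (log2 change 0.07 ± 0.04, adjusted p = 0.227). It was 0.11 without MAT1A 2 (adjusted p = 0.0346), 0.10 with the trend removed (adjusted p = 0.027) and 0.11 with the muscle covariate (adjusted p = 0.378). EIF4EBP1, the mTOR target best known in cancer cells, was 75.9 ± 0.524 in controls and 76.7 ± 4.93 in MAT1A libraries. EIF4ENIF1, which carries EIF4E into the nucleus, had values of 27.3, 28.96 and 27.8 in controls and 28.4, 28.6 and 29.7 in MAT1A libraries (log2 change 0.04 ± 0.05, adjusted p = 0.652; 0.002 with the muscle covariate, 0.02 without control 1 or MAT1A 3 and 0.07 without control 2).

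The scanning factors split by gene. EIF1AX, the X-linked eIF1A, had values of 64.7, 59.3 and 63.6 in controls and 58.2, 58.9 and 57.2 in MAT1A libraries, without overlap (log2 change -0.10 ± 0.04, adjusted p = 0.134; -0.02, adjusted p = 0.776, with the trend removed). EIF1B had values of 22.8, 21.9 and 19.8 in controls and 19.14, 18.96 and 20 in MAT1A libraries, where MAT1A 3 was above control 3 (log2 change -0.14 ± 0.06, adjusted p = 0.175; -0.05 with the muscle covariate). EIF1 was 693.8 ± 10.3 in controls and 709.8 ± 21.5 in MAT1A libraries, and EIF1AD, a nuclear relative of eIF1A, was 81.7 ± 3.35 and 86.6 ± 4.13. None was called.

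Of the factors that act when the large subunit joins, EIF5B and EIF5 differed in sign. EIF5B, the GTPase that catalyses joining, had values of 283.5, 299.5 and 308.9 in controls and 306.3, 330.6 and 314.7 in MAT1A libraries (log2 change 0.09 ± 0.04, adjusted p = 0.116, and 0.0184 with the replicate block). MAT1A 1 lay below control 3, so the groups overlapped. The change was 0.003 with the muscle covariate (adjusted p = 0.987), 0.06 without control 1 (adjusted p = 0.429) and 0.16 with the trend removed (adjusted p = 0.00678). EIF5, the GTPase activator of eIF2, had values of 558.2, 569.3 and 570.3 in controls and 533.8, 545.8 and 542.7 in MAT1A libraries. These did not overlap (log2 change -0.07 ± 0.03, adjusted p = 0.146, and 0.0476 with the block). With the trend removed the change was -0.02 (adjusted p = 0.573, and 0.421 with the block as well). EIF6, which keeps free large subunits from joining too early, was 185.7 ± 4.46 in controls and 191.3 ± 6.78 in MAT1A libraries.

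The eIF5A genes also parted. EIF5A had values of 540.7, 563.8 and 529.9 in controls and 572.3, 607.8 and 555.9 in MAT1A libraries, where MAT1A 3 fell below control 2 (log2 change 0.09 ± 0.04, adjusted p = 0.131, 0.0104 with the replicate block and 0.0297 with the trend removed). Without MAT1A 2 the change was 0.05 (adjusted p = 0.318). EIF5A2, a paralog known for amplification in some tumours, had values of 13.1, 12.5 and 12.2 in controls and 11.3, 10.2 and 11.1 in MAT1A libraries. The groups did not overlap (log2 change -0.20 ± 0.07, adjusted p = 0.0956; -0.10 with the trend removed and -0.12 with the muscle covariate). EIF5AL1, a retrocopy of EIF5A, overlapped at 4.41 ± 0.19 and 4.35 ± 0.295. Of 10 genes for hypusine, diphthamide and eEF2 methylation none was called; DOHH, which completes hypusine on eIF5A, was 39.6 ± 0.886 in controls and 45.2 ± 4.68 in MAT1A libraries (adjusted p = 0.068, and 0.0124 with the block).

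Of the described members, 3 elongation factor genes had the highest level per kilobase. Per kilobase of exon the control levels were 618 for EEF2, 491 for EEF1A1, 268 for EEF1B2 and 28.5 for EEF1D. EEF1B2 (chr2:206159585-206162928, plus strand), the subunit that exchanges GDP for GTP on eEF1A, had values of 504.7, 530.5 and 505.9 in controls and 539, 572.2 and 544.1 in MAT1A libraries. It rose by 0.10 ± 0.03 (SE) on the log2 scale without overlap (adjusted p = 0.0498, and 0.00265 with the replicate block). The call was lost in 10 of 17 other settings, among them the muscle covariate (log2 change 0.08, adjusted p = 0.526) and fits without control 1, control 3, MAT1A 1 or MAT1A 2, and 49.9% of its 36-base words occur in other genes.

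EEF1A1, the carrier of aminoacyl-tRNA, had values of 2890.0, 3008 and 2856 in controls and 3024, 3203 and 3043 in MAT1A libraries. The groups did not overlap, with control 2 close below MAT1A 1 (log2 change 0.08 ± 0.03, adjusted p = 0.128, 0.0047 with the block and 0.0215 with the trend removed). EEF2, the translocase, overlapped at 2493, 2508 and 2463 in controls and 2524, 2597 and 2404 in MAT1A libraries, and MAT1A 3 was the lowest of the 6 (log2 change 0.01, 95% interval -0.06 to 0.08). EEF1D, another exchange subunit, was 267.2 ± 4.65 and 276.9 ± 4.24. EEF1G is not analysed here.

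**Figure D3:**
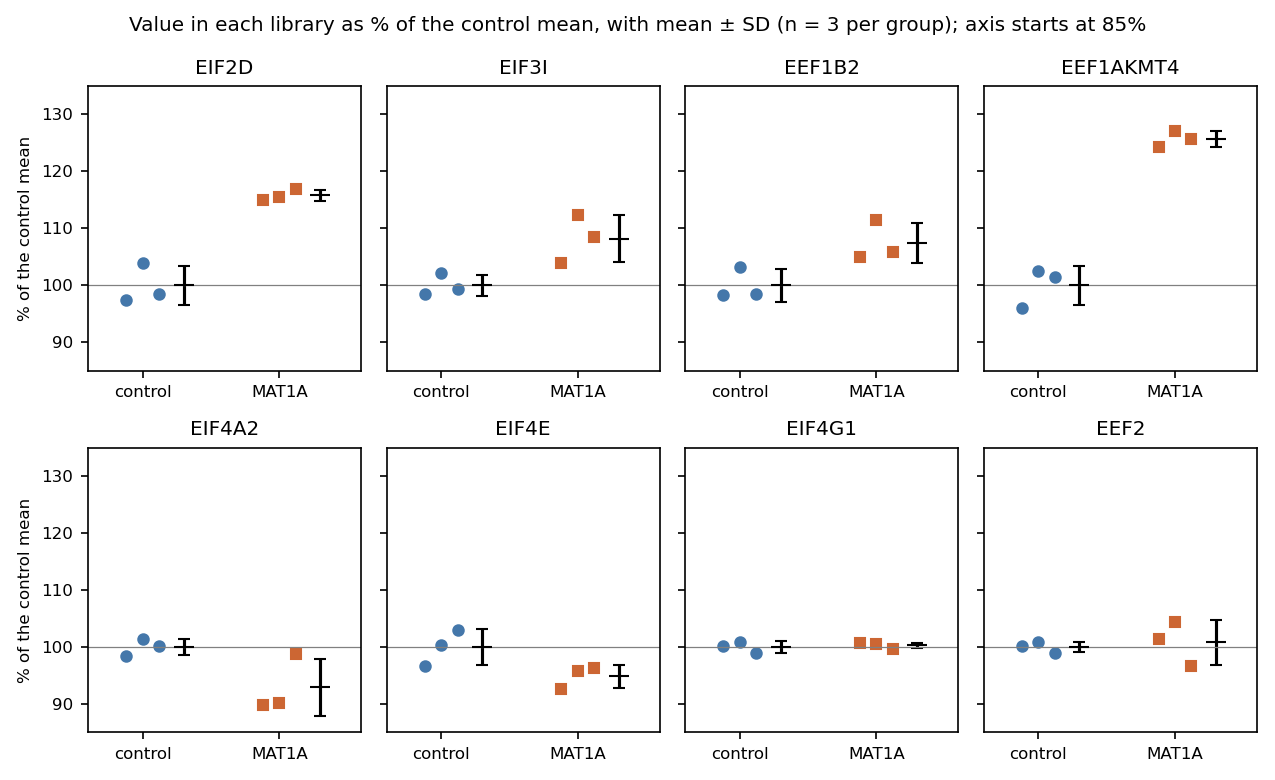
Value of 8 members in each library as a percentage of the control mean (vertical axis, starting at 85%), with mean ± SD, n = 3 per group: the 4 members called higher on top, 4 not called below. The MAT1A points of EIF2D lie together above every control, EIF4A2 has 2 low MAT1A libraries and 1 within the controls, and the EIF4G1 points of both groups overlap.

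The enzymes that methylate eEF1A use S-adenosylmethionine, the product of MAT1A, as methyl donor. EEF1AKMT4 (chr3:184249650-184259585, plus strand), a lysine methyltransferase of eEF1A, had values of 5.17, 5.51 and 5.45 in controls and 6.68, 6.84 and 6.76 in MAT1A libraries, from 90 to 145 reads. The groups lay well apart, and it rose by 0.28 ± 0.09 (SE) on the log2 scale (adjusted p = 0.0436). The call was lost without each library in turn (adjusted p 0.0766 to 0.134), with the muscle covariate (log2 change 0.23, adjusted p = 0.441), and with DESeq2 and edgeR. Exons of EEF1AKMT4-ECE2 and, on the other strand, CAMK2N2 overlap it, and unstranded reads cannot be told apart there. EEF1AKMT1, EEF1AKMT2, EEF1AKMT3 and EEF1AKNMT, the other methyltransferases, had log2 changes from 0.07 to 0.11 and were not called. EEF1E1, a scaffold of the tRNA synthetase complex, had a log2 change of 0.09 ± 0.11.

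EEF1A2, the eEF1A of muscle and neurons, was low throughout, at 4.36, 1.21 and 0.772 in controls 1, 2 and 3 and 0.809, 0.822 and 0.42 in MAT1A libraries, from 9 to 76 reads. Control 1 stood alone at the top and control 3 lay among the MAT1A libraries. The muscle sum was highest in control 1 as well, and its part in the level of EEF1A2 was not tested.

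Of the 19 pseudogenes and noncoding neighbours, 13 were tested. EEF1A1P16 (chr12:16990670-16992083), a processed copy of EEF1A1, had values of 2.93, 3.64 and 1.59 in controls and 1.72, 0.976 and 0.373 in MAT1A libraries, from 8 to 72 reads. The groups overlapped, since MAT1A 1 was above control 3. It fell by 0.89 ± 0.22 (SE) on the log2 scale (adjusted p = 0.0147). The call was lost with DESeq2, with the muscle covariate (log2 change -0.39, adjusted p = 0.585) and without control 1 or control 2 (adjusted p up to 0.075).

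The 11 EEF1A1 copies separated by how much sequence they share with other genes, a split at 20% of 36-base words chosen after the values were seen. EEF1A1P10, EEF1A1P15, EEF1A1P16 and EEF1A1P29 share 1.17% to 19.4%, and the ratio of MAT1A to control means was 0.277 to 0.595. The other 7 share 42.5% to 93%, with ratios from 0.779 to 1.81. The first 4 summed to 6.03, 8.79 and 3.18 in controls and to 4.10, 2.00 and 1.03 in MAT1A libraries, while the other 7 summed to 9.24, 10.1 and 8.30 and to 8.46, 11.4 and 8.90. Muscle transcripts were low in MAT1A libraries too, with their highest sum in control 1, while the 4 copies had theirs in control 2. For EEF1A1P16, the copy among the 4 that was tested, the fit with the muscle covariate is given above; for the other 3 the part of muscle transcripts was not tested. The remaining 8, which are EEF1B2P3, EEF1B2P6, EIF2S2P4, EIF3EP1, EIF3FP3, EIF4A1P10, EIF4HP1 and EIF3J-DT, held no called member.

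**Figure D4:**
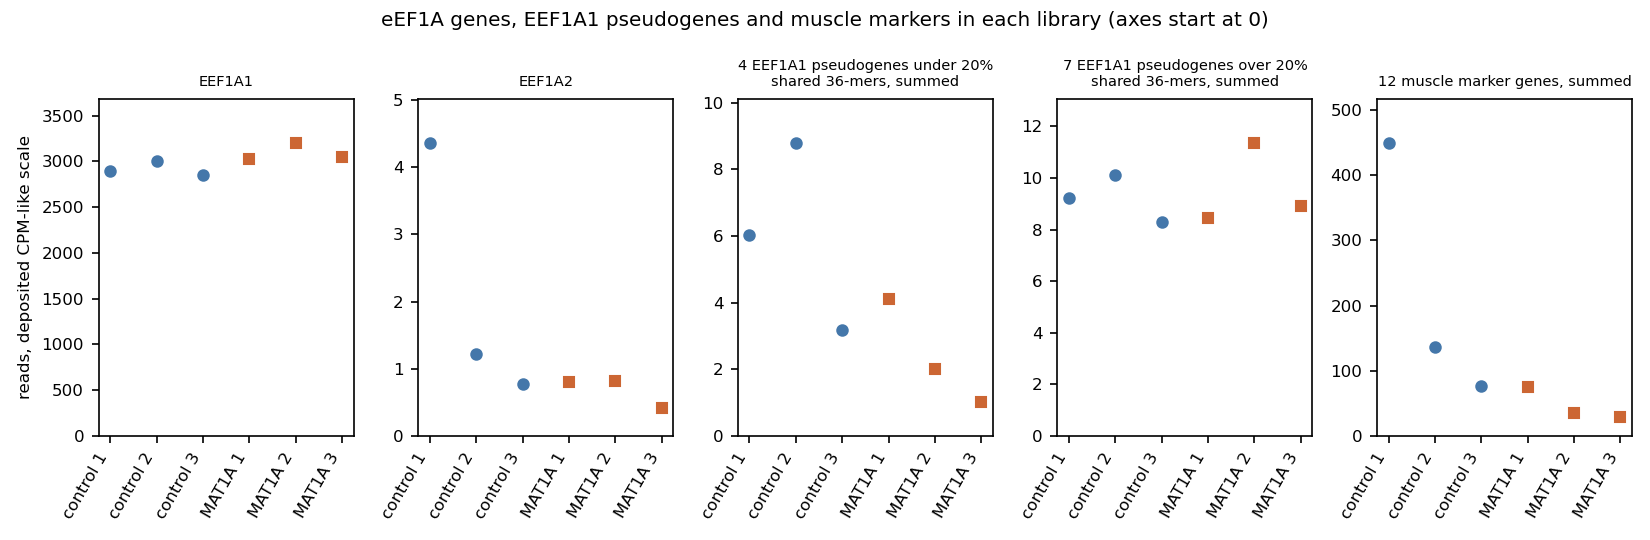
Values in each library (vertical axes, deposited scale from 0; horizontal axis, library) of EEF1A1, EEF1A2, summed EEF1A1 pseudogenes in 2 sets, and 12 summed muscle markers; circles are control, squares MAT1A. EEF1A2 and the muscle markers peak in control 1, the 4 pseudogenes with few shared 36-base words peak in control 2, and EEF1A1 stays between 2856 and 3203.

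Ratios of related genes within a library do not depend on how libraries were scaled. A trend on gene length or GC content can still shift them where the 2 genes differ in these. With that trend removed, the log2 changes were -0.01 for EIF4E, 0.08 for EIF4E2, 0.08 for EIF5A and -0.10 for EIF5A2. Without removal they were -0.07, 0.07, 0.09 and -0.20 in that order. Of 9 pairs compared, some of which share a gene, 4 did not overlap between groups. Among all tested single genes 14.7% had every MAT1A library above every control and 15.6% below, and no such share was computed for pairs. With 3 against 3 libraries the exact two-sided permutation test cannot go below p = 0.1. Over the 9 pairs that is adjusted p = 0.225. The log2 ratio of EIF4E to EIF4E2 was -0.873, -0.862 and -0.896 in controls and -1, -1.04 and -1.01 in MAT1A libraries, so the balance lay further toward EIF4E2 in each MAT1A library, by 0.14. The log2 ratio of EIF5A to EIF5A2 was 5.36, 5.50 and 5.45 in controls and 5.67, 5.89 and 5.65 in MAT1A libraries. The ratio of EIF1 to EIF1B was higher by 0.18 and that of EEF1A1 to EEF1A2 by 1.37, the latter with the low counts given above and by 0.64 without control 1. Both separated narrowly. For EIF1 to EIF1B control 3 was at 5.14 and MAT1A 1 at 5.16, and for EEF1A1 to EEF1A2 these libraries were at 11.85 and 11.87. The other 5 pairs overlapped, with exact permutation p = 0.3 for EIF4A1 to EIF4A2, 0.2 for EIF4G1 to EIF4G2, 0.9 for EIF4G1 to EIF4G3, 0.5 for EIF4EBP1 to EIF4EBP2 and 0.2 for EIF4EBP1 to EIF4E.

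**Figure D5:**
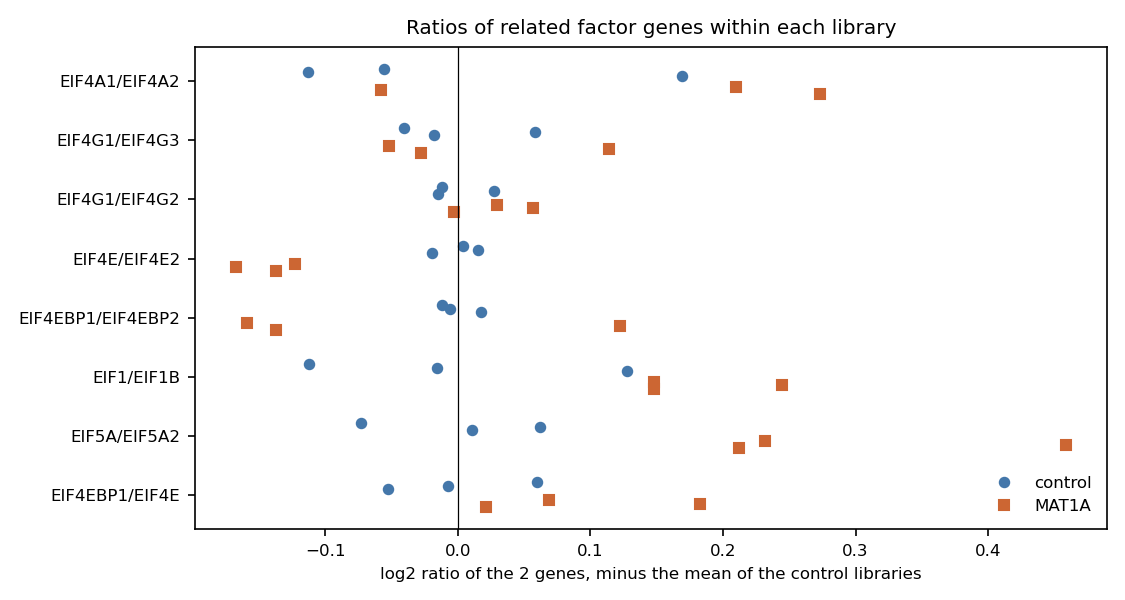
Log2 ratio of 8 pairs of related genes in each library, minus the control mean (horizontal axis); circles are control, squares MAT1A. EIF4E/EIF4E2 lies to the left of every control, and EIF1/EIF1B and EIF5A/EIF5A2 to the right; EEF1A1/EEF1A2 is left out for scale.

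Among other genes of translation, ribosomal protein genes leaned upward together. Of 77 tested 6 were called higher and none lower, 77 of 77 were above 0 and the median log2 change was 0.07. With the replicate block 46 were called higher. Over all tested genes 4.01% were called higher, 7.57% with the block, and 51.5% were above 0. Of the 2434 genes with a mean value of at least 100, 230 were called higher, 466 with the block, and 62.4% were above 0. RPL7 rose from 420.6 ± 10.4 to 470.2 ± 20.5 (adjusted p = 0.00569), RPL39 from 15.5 ± 0.555 to 18.8 ± 0.871 (adjusted p = 0.014) and RPL7A from 1484 ± 50.0 to 1618 ± 67.4 (adjusted p = 0.0308). Without control 1 adjusted p was 0.0464 for RPL7, 0.0666 for RPL39 and 0.152 for RPL7A; RPL7A also lost its call without control 3 (0.161) or MAT1A 2 (0.0525), and RPL39 with DESeq2 (0.0577). With the muscle covariate none of the 3 was called (log2 changes 0.12, 0.18 and 0.10 against 0.16, 0.26 and 0.12, adjusted p 0.282 to 0.468).

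Aminoacyl-tRNA synthetases, which charge the tRNAs that eEF1A carries, had 4 of 20 called higher and none lower. The shares over all tested genes were 4.01% higher and 7.4% lower. KARS rose from 228.4 ± 5.14 to 254.1 ± 6.21 (adjusted p = 0.00456), EPRS from 301.6 ± 10.2 to 330.8 ± 4.74 (adjusted p = 0.0119) and WARS from 104.8 ± 1.43 to 114.6 ± 1.503 (adjusted p = 0.0205). Of 9 mitochondrial factors 1 was called, MTIF2, which loads the mitochondrial initiator tRNA, from 63.5 ± 0.761 to 73.4 ± 3.31 (adjusted p = 0.00388). None of these 4 calls held with the muscle covariate (adjusted p 0.106 to 0.461), where the log2 changes were 0.13 for KARS, 0.08 for EPRS, 0.11 for WARS and 0.21 for MTIF2, against 0.15, 0.13, 0.13 and 0.20 without it; the calls of EPRS and WARS were also lost without control 1 (adjusted p 0.0926 and 0.0963) or control 3 (0.0507 and 0.0875), and that of WARS without MAT1A 1 (0.0552) and with DESeq2 (0.0582).

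The share of all tested genes called in either direction was 11.4%. Of 18 poly(A)-binding and cap-complex regulators 1 was called, PABPC4, from 290.4 ± 9.94 to 315.2 ± 6.04 (adjusted p = 0.025). That call was lost with the muscle covariate and without control 1, control 2 or MAT1A 1 (adjusted p 0.0587 to 0.494), where the log2 change of 0.12 was 0.08 with the muscle covariate. Of 8 genes of termination, recycling and reinitiation 1 was called: GSPT2, a release factor eRF3, fell from 8.02 ± 0.705 to 6.09 ± 0.349 (adjusted p = 0.0196), a log2 change of -0.35 whose call was lost with DESeq2 (-0.40), with the muscle covariate (-0.31, adjusted p = 0.296) and without control 1, control 2, MAT1A 1 or MAT1A 2.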

How the data were processed

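RNA of 6 samples was measured with unstranded TruSeq version 2 libraries. The authors deposited 13271 genes as a signal, reads on a scale near CPM. STAR 2.6.0c, featureCounts, edgeR and hg38 are listed in the submitters' processing notes; annotation and settings: not given in the sources used here. In every column 100% of values were whole multiples of 1 step (tolerance 0.001 reads), which recovers the reads. Those of genes sharing sequence or overlapping exons may be split or lost.

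The test was limma 3.58.1 (R 4.3.3) with an intensity trend on log2(value + 1), on 12866 genes that reached 1 in 3 or more libraries, Benjamini-Hochberg adjustment over all of them and a threshold of 0.05; log2(value + 1) understates changes of low genes. It was tested on simulated data. Groups came from sample titles. Same-numbered libraries deviated together after group means were removed (correlations 0.25, 0.18 and 0.19). The main fit was unpaired, and numbers were treated as pairing samples only in fits with the block. That pairing was read from the values and is stated by no label. Blocked values stand beside results they change. Alternatives were DESeq2 1.42.0 and edgeR 4.0.16 on recovered reads, other scalings, filters of none and at least 5, a pseudocount of 0.1, the block, a length and GC trend removed, a muscle covariate, and leaving out each library. The fit with both the trend removed and the block, and the alternatives of the paralog ratios, were chosen after the data were seen.

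Members, lists and tests were chosen with earlier results of these data known. Values in each library are given for called members, for the 2 members with the smallest p of each factor group without a called member, and for genes of the ratio pairs; other lists name up to 3 called genes. Members beyond that rule, those called with the block or in the EEF1A1 copies, and DOHH, were added once their values were known. GENCODE 29 gave positions and matched 77 of 78 members; promoter entries of RefSeq matched 48. Words of 36 bases came from the longest GENCODE transcript of each gene.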

Additional observations from a re-analysis of the deposited data

How the results depend on the processing

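The count of members called higher, 4 at first, was 2 with DESeq2, 2 with edgeR, 11 with the replicate block, 15 after removal of the length and GC trend, 21 with both, and 0 with the muscle covariate. Leaving out 1 library gave 1 to 6 higher. The count called lower, 1 at first, was 0 with DESeq2 or the muscle covariate, 3 with the replicate block, and 0 to 2 with 1 library left out. It was also 0 with the stricter filter, under which EEF1A1P16 was not tested. EIF2D stayed called in each fit that left out a library, and EEF1AKMT4 in none. The median of eIF2, 0.0588 at first, was 0.0877 once the length and GC trend was removed, blocked or not. The median of all tested genes moved from 0.0040 to 0.0229 at the same step. For eIF4 the median was 0.0102 with the muscle covariate and from 0.0222 to 0.0462 with 1 library left out. EIF4E2 turned to -0.0196 with the muscle covariate, EIF4G2 to 0.0248 with the trend removed, blocked or not, and EIF4G3 to 0.0089 there, 0.0503 with the muscle covariate and -0.0411 to 0.0418 with 1 library left out. The difference in log2 ratio of EIF4G1 to EIF4G3 ranged from -0.0399 to 0.0428 with 1 library left out, and was -0.0089 without control 1 and -0.0399 without MAT1A 2. The cause of these shifts was not tested. The 95% interval was -0.05 to 0.06 for EIF4G1 and 0.10 to 0.47 for EEF1AKMT4, which had 90 to 145 reads a library.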
